A study of Mus musculus with 36 samples.

Results

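The 34 genes described here mark astrocytes and Bergmann glia. They were taken by symbol from a fixed list out of the 24421 genes in each of 2 count tables. The rule itself uses no measured value, but the list was chosen with earlier results of these data known. All 34 were expressed above the low-count filter in both tissues. The tables hold poly(A) RNA-seq of cerebellum and hippocampus from 18 adult C57Bl/6 mice, 3 males and 3 females of each of 3 genotypes, each animal giving both tissues. Control animals were Pogz fl/fl without Cre, Pogz cKO+/- animals were NesCre/+; Pogz fl/+, and Pogz cKO-/- animals were NesCre/+; Pogz fl/fl. Pogz encodes a chromatin protein linked to autism and intellectual disability, and the study asked how its dosage affects gene expression in both regions. Cre under the Nestin promoter acts in neural progenitors, so astrocytes, neurons and oligodendrocytes all derive from cells that could recombine, and no cell type was deleted alone. Every mutant and no control carried the Cre transgene, so that the effects of Cre and of the lost alleles cannot be told apart.

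Astrocytes take up glutamate and GABA, buffer potassium and water at the vessels, supply neurons with metabolites and secrete lipid carriers. Bergmann glia are the radial astrocytes of the cerebellar cortex, which ensheath Purkinje cell synapses and are rich in the glutamate transporter Slc1a3. The glial filament protein Gfap and the water channel Aqp4 vary in astrocytes with region and reactive state, and Fabp7 and Hopx also mark radial glia and neural stem cells.

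Cerebellar libraries held 21421850 to 32544929 gene counts and hippocampal libraries 17609321 to 45544188. Tissue identity held in the counts: the granule cell gene Gabra6 lay between 909.6 and 1040 CPM (counts scaled to the library total) in control cerebellum, and Neurod6, a hippocampal excitatory neuron gene, between 149 and 234 CPM in control hippocampus against 6.19 to 9.14 CPM in control cerebellum. A list of granule cell markers summed to 6116 to 6987 CPM in control cerebellum and 85.8 to 368 in control hippocampus (median 103). Choroid plexus markers summed to 33.8 to 4993 CPM in control hippocampus (median 45.9), so the controls differed in traces of other tissue. Pogz itself had a mean of 99.6 ± 15.2 CPM in control, 77.7 ± 5.78 in cKO+/- and 65.8 ± 7.34 in cKO-/- cerebellum (SD, n = 6 each), and reads of exons outside the deleted ones are part of these values. In the hippocampus Pogz had 90.9 ± 1.24, 76.4 ± 2.27 and 61.7 ± 3.55 CPM (SD, n = 6, 6 and 5). The hippocampal library of cKO-/- Sample_1160 stood apart, with a median Spearman correlation of 0.886 to the other hippocampal libraries, and it is left out of hippocampal values unless stated. All 6 controls carry names with numbers from Sample_1120 to Sample_1219, while 3 cKO+/- and 4 cKO-/- animals have numbers outside this range. The labels do not say what the numbers stand for.

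In the cerebellum 9 of the 34 genes changed with the number of Pogz alleles lost, 8 of them upward (Gfap, Fabp7, Aqp4, Hopx, Ppp1r3c, Slc25a18, Gja1 and Slc1a2) and 1 downward (Dio2). In the hippocampus 6 changed: Fabp7, Aqp4, Hopx and Slc25a18 rose, and Dio2 and Glul fell. Fabp7, Aqp4, Hopx, Slc25a18 and Dio2 passed in both tissues, and 24 genes, among them the general astrocyte markers Slc1a3, Aldh1l1, S100b and Sox9, passed in neither. Fold changes are per allele lost (0, 1 or 2) and on the log2 scale, except where written in the form of 2-fold. Changes were tested with edgeR's quasi-likelihood test with Benjamini-Hochberg adjustment over all tested genes, at an adjusted p of 0.05. By this rule 13.7% of all 14027 cerebellar genes were called (7.11% higher, 6.55% lower) and 4.44% of all 14339 hippocampal genes (2.09% higher, 2.35% lower). The median log2 fold change per allele lost was 0.05 over the 34 genes and 0.00087 over all genes in the cerebellum, and -0.013 and 0.0017 in the hippocampus. In these bulk samples, fewer cells of a type and less RNA per cell cannot be told apart.

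**Figure D1:**
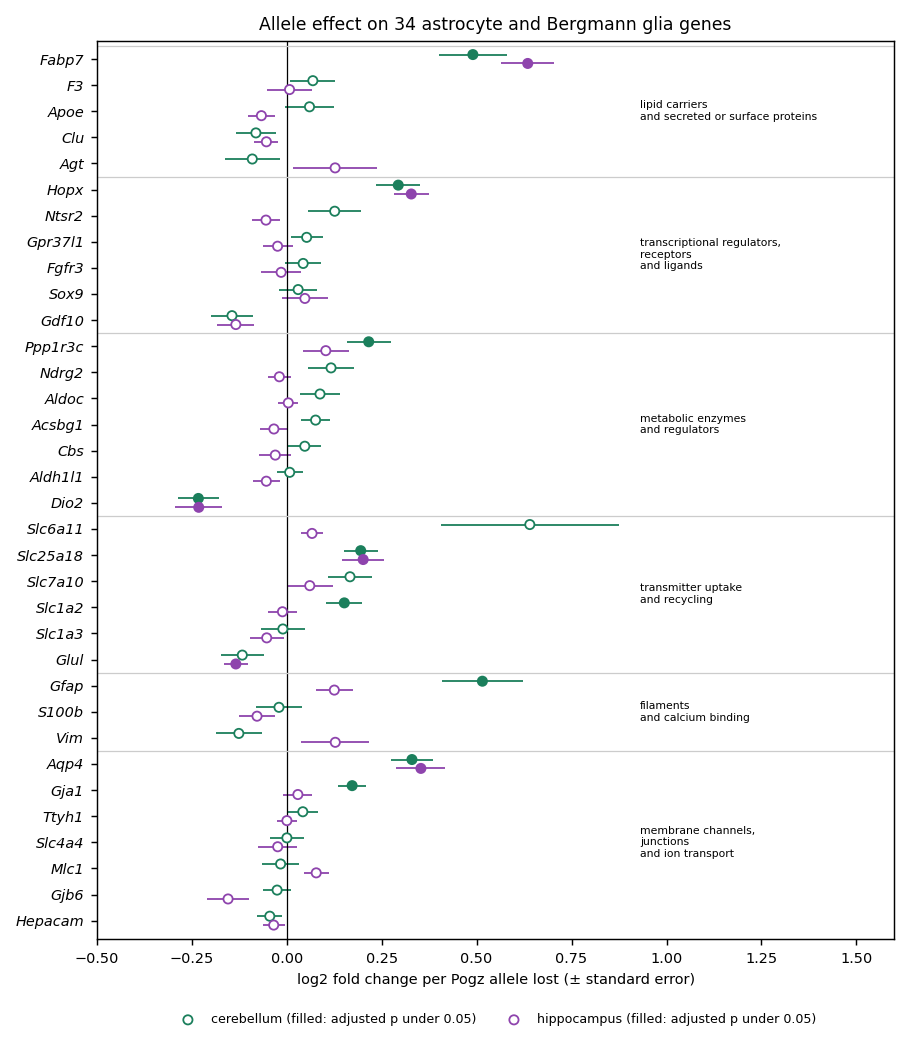
Log2 fold change per Pogz allele lost (x axis, bars: standard error) for the 34 genes, grouped by role, in the cerebellum (green) and the hippocampus (purple); filled circles passed an adjusted p of 0.05. Fabp7, Hopx, Aqp4, Slc25a18 and Dio2 are filled in both tissues. The wide bar of cerebellar Slc6a11 belongs to a log2 fold change of 0.64 that did not pass.

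When a term for the animal numbers outside Sample_1120 to Sample_1219 was added, 2 of the 34 genes passed in the cerebellum (Aqp4 and Hopx) and 2 in the hippocampus (Hopx and Fabp7). Of all genes, 308 of 14027 passed with it in the cerebellum and 68 of 14339 in the hippocampus, against 1916 and 636 without it. The genotype and these numbers overlap in part in this design.

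Among the 7 genes of membrane channels, junctions and ion transport, 2 rose in the cerebellum and 1 in the hippocampus. Aqp4, the water channel of astrocyte endfeet, ranged from 411 to 512 CPM in control cerebellum (median 464), from 678 to 803 in cKO+/- (median 702) and from 665 to 761 in cKO-/- (median 747). Every mutant library lay above every control, and the mutant genotypes overlapped almost fully. The log2 fold change was 0.33 ± 0.05 (SE) per allele lost (adjusted p = 0.000736), and it passed in all 27 alternatives tried in the cerebellum.

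In the hippocampus, where Aqp4 was lower, it ranged from 127 to 181 CPM in controls (median 148), from 186 to 252 in cKO+/- (median 216) and from 187 to 306 in cKO-/- (median 273). Again no mutant library overlapped the controls, and the log2 fold change per allele lost was 0.35 ± 0.06 (SE; adjusted p = 0.00388). The library of Sample_1160, with 90.9 CPM of Aqp4, lay below all controls, and with it included the fold change was 0.27 (adjusted p = 0.237).

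Gja1, the connexin 43 gap junction protein, ranged from 228 to 276 CPM in control cerebellum (median 254), from 303 to 336 in cKO+/- (median 313) and from 286 to 380 in cKO-/- (median 327). Both mutant groups were clear of the controls, with a log2 fold change of 0.17 ± 0.04 (SE) per allele lost (adjusted p = 0.00697). In the hippocampus the groups overlapped, with controls at 212 to 282 CPM and cKO-/- at 205 to 272. The log2 fold change of 0.03 did not pass there (adjusted p = 0.701). The partner connexin Gjb6, the sodium bicarbonate cotransporter Slc4a4, the volume-regulation genes Mlc1 and Hepacam and the chloride channel family gene Ttyh1 passed in neither tissue, and their fold changes lay between -0.15 (Gjb6, hippocampus) and 0.08 (Mlc1, hippocampus).

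Of the 3 filament and calcium-binding genes, Gfap rose in the cerebellum, and none passed in the hippocampus. Gfap, the astrocyte intermediate filament, ranged from 128 to 153 CPM in control cerebellum (median 136), from 244 to 373 in cKO+/- (median 261) and from 215 to 368 in cKO-/- (median 269). The lowest mutant library exceeded the highest control, and the spread among mutants was wider than among controls. Its log2 fold change was 0.52 ± 0.11 (SE) per allele lost (adjusted p = 0.00469). With the term for the animal numbers it was 0.33 (adjusted p = 0.106), and among animals named Sample_1120 to Sample_1219 alone it was 0.44 (adjusted p = 0.0333). Of the cKO-/- libraries, that last fit held only Sample_1160 and Sample_1219.

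In the hippocampus, where Gfap was higher, it ranged from 351 to 421 CPM in controls (median 411), from 398 to 531 in cKO+/- (median 488) and from 407 to 573 in cKO-/- (median 451). The groups overlapped and the fold change of 0.13 ± 0.05 did not pass (SE; adjusted p = 0.162). Vim, another intermediate filament, and S100b, a calcium-binding protein of mature astrocytes, passed in neither tissue.

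**Figure D2:**
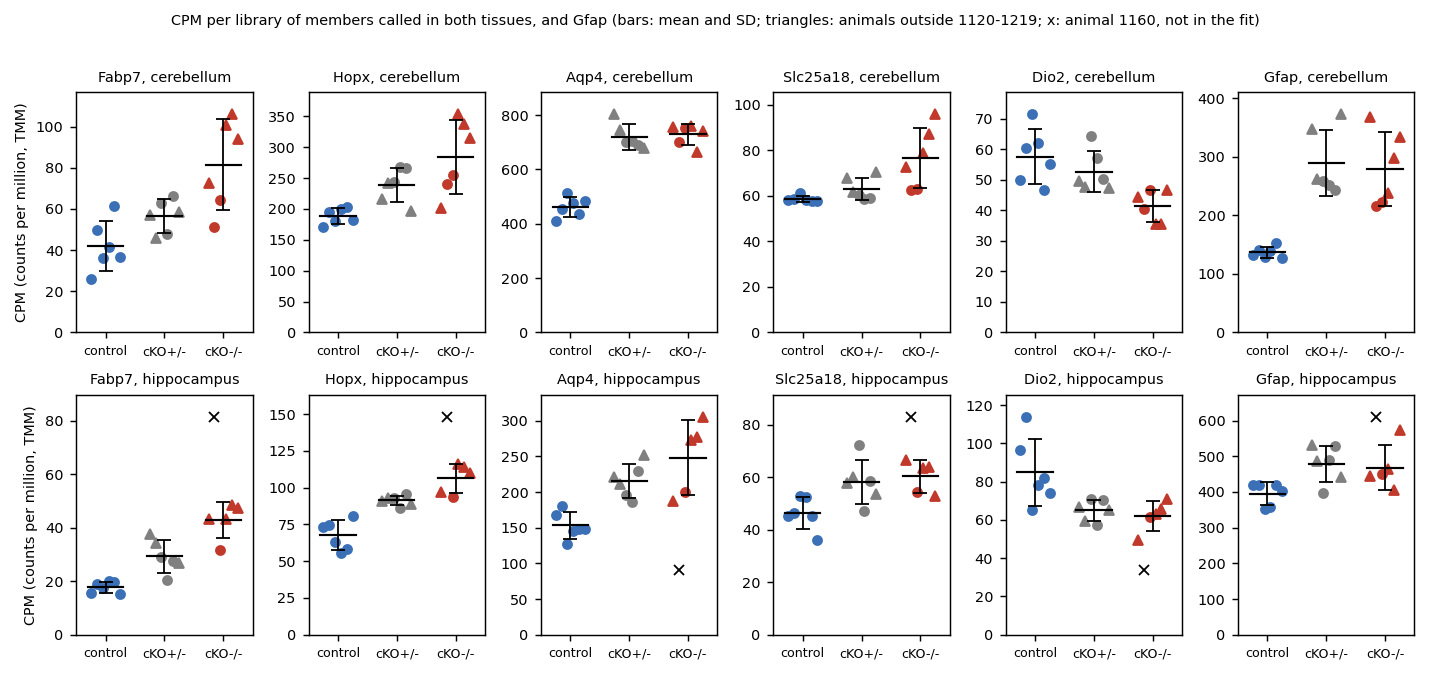
CPM of 6 genes in each library (y axis from 0), by genotype, in the cerebellum (top) and the hippocampus (bottom), with mean and SD; triangles are animals numbered outside Sample_1120 to Sample_1219 and crosses the hippocampal library of Sample_1160, which is not in the means. Cerebellar Aqp4 and Gfap stand at like heights in both mutant genotypes, while Fabp7 lies higher in cKO-/- than in cKO+/- animals in the mean of both tissues.

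Of the 6 genes of transmitter uptake and recycling, Slc1a2 and Slc25a18 rose in the cerebellum, and Slc25a18 rose and Glul fell in the hippocampus. Slc25a18, a mitochondrial glutamate carrier, ranged from 57.5 to 61.1 CPM in control cerebellum (median 58.1), from 58.7 to 70.3 in cKO+/- (median 61) and from 62.6 to 95.7 in cKO-/- (median 75.7). All cKO-/- libraries lay above all controls, and the 3 highest belonged to Sample_1371, Sample_1379 and Sample_1385. The log2 fold change was 0.19 ± 0.04 (SE; adjusted p = 0.00944) and 0.09 (adjusted p = 0.158) without these animals. Here and for the genes below, these 3 animals were left out after the values were seen. A smaller rise without them follows in part from that choice.

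In the hippocampus Slc25a18 ranged from 36 to 52.9 CPM in controls (median 45.8), from 47.2 to 72.4 in cKO+/- (median 58.1) and from 53 to 66.7 in cKO-/- (median 63.5), so that controls and cKO-/- met at the edge without overlap. Its fold change there was 0.20 ± 0.05 (SE; adjusted p = 0.044), close to the threshold.

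Slc1a2, the main glutamate transporter of the forebrain, ranged from 686 to 977 CPM in control cerebellum (median 854), from 846 to 1004 in cKO+/- (median 976) and from 888 to 1234 in cKO-/- (median 1040). The groups overlapped, and the fold change of 0.15 ± 0.05 (SE) was near the threshold (adjusted p = 0.039). In the hippocampus Slc1a2 lay between 2571 and 3810 CPM in controls and between 2730 and 3227 in cKO-/- animals, a fold change of -0.01 (adjusted p = 0.899).

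Glul, the glutamine synthetase that closes the glutamate to glutamine cycle, ranged from 1298 to 1534 CPM in control hippocampus (median 1412), from 1169 to 1427 in cKO+/- (median 1284) and from 1050 to 1339 in cKO-/- (median 1144). Of the 5 cKO-/- libraries, 4 lay below all controls, and the log2 fold change was -0.13 ± 0.03 (SE; adjusted p = 0.0196). In the cerebellum it was -0.12 ± 0.06 (SE; adjusted p = 0.167). A microRNA gene on the same strand shares 3.85% of the length of Glul.

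Slc6a11, the GABA transporter GAT-3, varied most between cerebellar libraries of mutants: it ranged from 30.7 to 48.3 CPM in controls (median 37.3), from 32.4 to 214 in cKO+/- (median 65) and from 32 to 203 in cKO-/- (median 66.9). Each mutant group held libraries at control level beside libraries several times higher, with a coefficient of variation of 80.5% in cKO+/- and 69.8% in cKO-/-, and the fold change of 0.64 ± 0.23 did not pass (SE; adjusted p = 0.0731). The 3 highest libraries, Sample_1433 (214 CPM), Sample_1385 (203 CPM) and Sample_936 (126 CPM), are all numbered outside Sample_1120 to Sample_1219, and with the term for these numbers the fold change was 0.06. In the hippocampus Slc6a11 lay at 156 to 175 CPM in controls, 142 to 194 in cKO+/- and 166 to 191 in cKO-/-. Slc1a3 and the amino acid exchanger Slc7a10 passed in neither tissue. Slc7a10 was near the threshold in the cerebellum, at 0.17 ± 0.06 (SE; adjusted p = 0.0563), and 0.07 (adjusted p = 0.597) with the term for the animal numbers. DESeq2 called both Slc7a10 and Slc6a11 in the cerebellar trend.

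Of the 7 metabolic genes, Ppp1r3c rose in the cerebellum and Dio2 fell in both tissues. Dio2, the deiodinase that converts thyroxine to active thyroid hormone in astrocytes, ranged from 46.6 to 71.5 CPM in control cerebellum (median 57.7), from 47.4 to 64.3 in cKO+/- (median 49.9) and from 35.5 to 46.8 in cKO-/- (median 42.4). The cKO-/- libraries all lay below the cKO+/- libraries and met only the lowest control. The log2 fold change was -0.23 ± 0.05 (SE) per allele lost (adjusted p = 0.00919).

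In the hippocampus Dio2 ranged from 65.2 to 114 CPM in controls (median 80), from 57.4 to 71.1 in cKO+/- (median 65.7) and from 49.7 to 71.1 in cKO-/- (median 63). The groups overlapped at the lowest controls, and the fold change was again -0.23 ± 0.06 (SE; adjusted p = 0.0404). With Sample_1160, at 34.1 CPM, it was -0.28 (adjusted p = 0.0757).

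Ppp1r3c, which targets protein phosphatase to glycogen, ranged from 27.7 to 35.7 CPM in control cerebellum (median 31.8), from 28.9 to 40.7 in cKO+/- (median 34.4) and from 33.9 to 55 in cKO-/- (median 42.7). The groups overlapped and the fold change was 0.22 ± 0.06 (SE; adjusted p = 0.0205), which fell to 0.08 (adjusted p = 0.336) without Sample_1371, Sample_1379 and Sample_1385. The folate enzyme Aldh1l1, the glycolytic enzyme Aldoc, the acyl-CoA synthetase Acsbg1, the cystathionine synthase Cbs and Ndrg2 passed in neither tissue.

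Of the 6 transcriptional regulators, receptors and ligands, Hopx rose in both tissues. Hopx, an atypical homeodomain protein of Bergmann glia and quiescent neural stem cells, ranged from 171 to 204 CPM in control cerebellum (median 189), from 197 to 267 in cKO+/- (median 243) and from 202 to 354 in cKO-/- (median 285). The cKO-/- library of Sample_936, at 202 CPM, and a cKO+/- library met the controls, and the log2 fold change was 0.29 ± 0.06 (SE; adjusted p = 0.00321). Without Sample_1371, Sample_1379 and Sample_1385 it was 0.18 (adjusted p = 0.10).

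In the hippocampus Hopx ranged from 55.7 to 80.7 CPM in controls (median 68.1), from 86.4 to 95.7 in cKO+/- (median 91.9) and from 93.8 to 116 in cKO-/- (median 110). All 11 mutant libraries lay above all controls, with a fold change of 0.33 ± 0.05 (SE; adjusted p = 0.000349). It was 0.37 (adjusted p = 0.000784) with Sample_1160, at 148 CPM.

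The Bergmann glia ligand Gdf10 ranged from 182 to 251 CPM in control cerebellum (median 218), from 146 to 247 in cKO+/- (median 196) and from 130 to 228 in cKO-/- (median 182). The groups overlapped and the fold change of -0.14 ± 0.06 did not pass (SE; adjusted p = 0.0925), nor did the -0.13 of the hippocampus, where Gdf10 lay between 13.3 and 22.5 CPM in all libraries of the fit. The glial transcription factor Sox9, the growth factor receptor Fgfr3 and the G protein-coupled receptors Gpr37l1 and Ntsr2 passed in neither tissue.

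Of the 5 lipid carriers and secreted or surface proteins, Fabp7 rose in both tissues. Fabp7, the brain fatty acid binding protein of radial glia and astrocytes, ranged from 15.1 to 20 CPM in control hippocampus (median 18.3), from 20.5 to 37.8 in cKO+/- (median 28.3) and from 31.7 to 48.7 in cKO-/- (median 43.4). The lowest cKO+/- library exceeded the highest control, and only the lowest cKO-/- library, Sample_1219, fell within the cKO+/- range. The log2 fold change was 0.63 ± 0.07 (SE) per allele lost (adjusted p = 2.65e-05), and cKO-/- animals were 2.4-fold above controls.

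In the cerebellum Fabp7 ranged from 26 to 61.3 CPM in controls (median 39.1), from 46.1 to 66.5 in cKO+/- (median 57.8) and from 51 to 106 in cKO-/- (median 83.3). The groups overlapped, and Sample_1371, Sample_1379 and Sample_1385 were the 3 highest. The fold change was 0.49 ± 0.09 (SE; adjusted p = 0.00173), and 0.29 (adjusted p = 0.0731) without these animals. Controls spread most for this gene, with a coefficient of variation of 29.3%.

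Apoe and Clu, the apolipoproteins of astrocytes, the angiotensinogen gene Agt and the tissue factor gene F3 passed in neither tissue. Hippocampal Agt was highest in the cKO+/- animals, at 28.3 to 46.5 CPM against 16.8 to 30.5 in controls and 20.4 to 32.1 in cKO-/-, and the difference of cKO+/- from control, 0.61 on the log2 scale, did not pass (adjusted p = 0.165).

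Promoters of 3 of the 5 members that changed in both tissues are shown, Fabp7 and Hopx as genes that rose and Dio2 as the one that fell. RefSeq windows of 300 bases (GRCm38.p6, from 250 bases before to 50 bases after the start) were matched for 31 of the 34 genes. Fabp7 lies at chr10:57784673-57784972 (+), Hopx at chr5:77115074-77115373 (-) and Dio2 at chr12:90738989-90739288 (-). Capitals mark letters found by a search for TATAAA and the cyclic AMP response element TGACGTCA.

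Fabp7: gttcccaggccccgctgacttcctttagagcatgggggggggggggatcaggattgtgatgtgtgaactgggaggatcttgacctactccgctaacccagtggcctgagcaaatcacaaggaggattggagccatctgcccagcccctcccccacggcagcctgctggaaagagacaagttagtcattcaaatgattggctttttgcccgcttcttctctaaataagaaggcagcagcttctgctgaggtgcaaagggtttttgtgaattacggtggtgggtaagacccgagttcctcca
Hopx: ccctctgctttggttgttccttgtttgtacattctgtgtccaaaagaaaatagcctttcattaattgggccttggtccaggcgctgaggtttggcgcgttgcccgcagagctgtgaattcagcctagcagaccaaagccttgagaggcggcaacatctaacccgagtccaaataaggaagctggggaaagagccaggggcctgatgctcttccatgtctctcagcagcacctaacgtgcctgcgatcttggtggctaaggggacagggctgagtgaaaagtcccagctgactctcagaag
Dio2: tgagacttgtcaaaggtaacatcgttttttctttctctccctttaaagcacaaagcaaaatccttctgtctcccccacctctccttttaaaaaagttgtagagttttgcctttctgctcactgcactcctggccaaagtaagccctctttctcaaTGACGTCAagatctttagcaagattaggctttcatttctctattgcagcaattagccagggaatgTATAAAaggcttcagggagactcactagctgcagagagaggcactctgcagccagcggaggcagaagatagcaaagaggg

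The search covered both strands for GTGGGAA (RBPJ), the NFI palindrome, ACAATG (SOX), TATAAA and TGACGTCA, the last chosen after the sequences were seen, as was TATAAA. Dio2 held TATAAA at -30 and TGACGTCA at -95 from its start, and was the only one of the 31 with TGACGTCA, which 1.88% of all 27025 promoters held. TATAAA was in 19.4% of the 31 promoters and in 14.2% of all, and Slc25a18, which rose in both tissues, held it as well, at -75 on the minus strand. GTGGGAA was in the Aldoc promoter and 6.39% of all, ACAATG in the Apoe promoter and 12.8% of all, and the NFI palindrome in 0 of the 31 and 0.0407% of all. None of the searched letters was in the Fabp7 or Hopx window. The RefSeq start of Dio2 lies 600 bases from the start that the count table gives.

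Whether 1 lost allele already gave the full difference was read from the genotypes taken separately. In the cerebellum 2 of the 34 genes differed between cKO+/- and control, against 0.342% of all genes, and both had like levels in cKO-/-. Aqp4 was 1.56-fold above control in cKO+/- and 1.58-fold in cKO-/-, and Gfap 2.11-fold and 2.04-fold. The log2 difference of cKO-/- from cKO+/- was 0.02 ± 0.07 (SE; adjusted p = 0.963) for Aqp4 and -0.04 ± 0.13 (SE; adjusted p = 0.959) for Gfap.

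The departure of the cKO+/- level from the midpoint of the other genotypes was 0.31 ± 0.06 for Aqp4 (SE; adjusted p = 0.0948) and 0.56 ± 0.11 for Gfap (SE; adjusted p = 0.197), and did not pass for any of the 34 genes. At an unadjusted p under 0.05, 3 of the 34 departed from the midpoint in each tissue, and edgeR called 0.0214% of all cerebellar genes and 0 of all hippocampal genes. Gja1 had a like pattern without passing, with log2 differences of 0.30 in cKO+/- (adjusted p = 0.0707) and 0.34 in cKO-/- (adjusted p = 0.00399). The same 2 differences in the cerebellum were 0.11 and 0.39 for Slc25a18, 0.12 and 0.43 for Ppp1r3c, and -0.13 and -0.47 for Dio2. Their cKO+/- levels departed from the midpoint by -0.09 ± 0.08, -0.10 ± 0.10 and 0.11 ± 0.09 (SE; adjusted p = 0.9997 each).

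In the hippocampus edgeR called 0 of the 34 genes between cKO+/- and control, against 0.0349% of all genes, while 9 had an unadjusted p under 0.05 and DESeq2 called 4. The log2 difference of Fabp7 was 0.72 in cKO+/- (adjusted p = 0.0788) and 1.26 in cKO-/- (adjusted p = 3.72e-05), and that of Hopx 0.43 (adjusted p = 0.0913) and 0.65 (adjusted p = 0.000268). Between cKO-/- and control, 9 genes passed in the cerebellum and 6 in the hippocampus, against 12.7% and 4.87% of all genes, and between cKO-/- and cKO+/- edgeR called 0 of the 34 in either tissue, against 0.413% and 0.718%, with 8 and 4 at an unadjusted p under 0.05.

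Libraries of cKO-/- and control did not overlap for 4 of the 34 genes in the cerebellum (Aqp4, Gfap, Gja1 and Slc25a18), against 4.58% of all genes, and for 4 in the hippocampus (Aqp4, Hopx, Slc25a18 and Fabp7), against 3.65%. Libraries of cKO+/- and control did not overlap for 3 genes in the cerebellum (Aqp4, Gfap and Gja1), against 1.15%, and for 3 in the hippocampus (Aqp4, Hopx and Fabp7), against 0.523%. All of these were higher in the mutants. Between cKO-/- and cKO+/- only Dio2 did not overlap in the cerebellum, being lower in cKO-/-, against 0.791% of all genes, and 0 of the 34 in the hippocampus, against 1.97%.

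**Figure D3:**
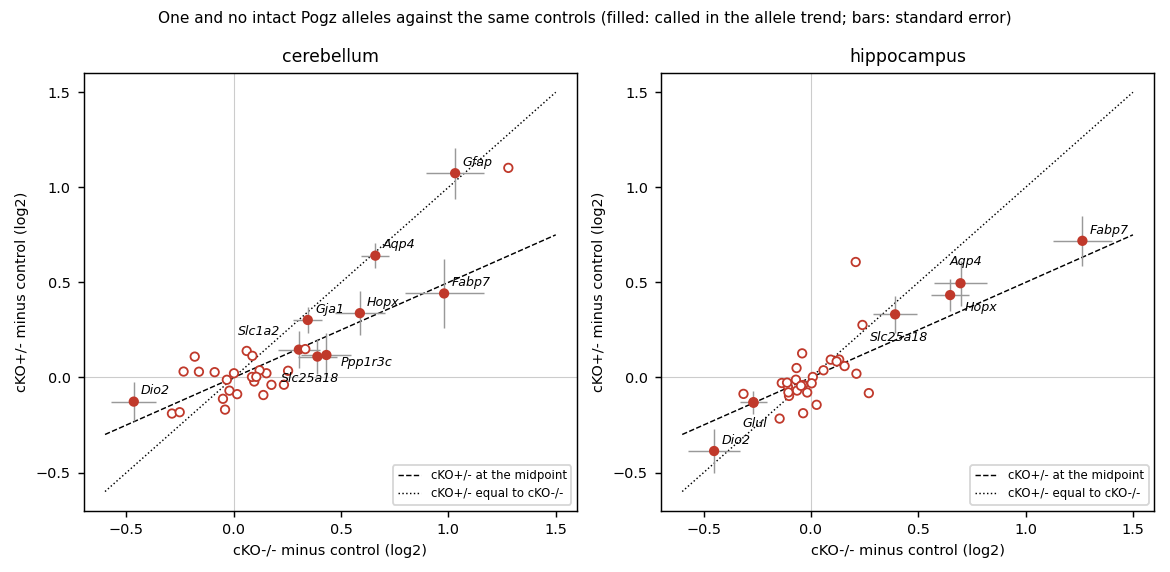
Log2 difference of cKO+/- from control (y axis) against that of cKO-/- from the same controls (x axis) for the 34 genes in each tissue; filled circles passed in the allele trend, with standard errors. Cerebellar Gfap and Aqp4 lie on the dotted line of equal differences, and hippocampal Fabp7, at 1.26 and 0.72, lies near the dashed line of the midpoint.

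Within cKO-/- cerebellum the 34 genes did not move alike in each animal. In Sample_1371, Sample_1379 and Sample_1385 the median gene was 0.27, 0.21 and 0.30 above the control mean on the log2 scale, and 21, 19 and 23 of the 34 genes lay above all controls. The cKO+/- library of Sample_1433 had a median of 0.20, with 16 genes above all controls. In Sample_1160 and Sample_1219 the median gene was -0.13 and -0.09, and 13 and 12 of the 34 lay below all controls. The 3 high cKO-/- animals were singled out after their values were seen. The summed level of the 34 genes was 16234 to 16465 CPM in them, against 12340 to 14014 in controls, 13616 to 14153 in cKO+/- and 12470.5 in Sample_1160.

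Genes that did not pass in the allele trend were among those higher in these animals. Ndrg2, an astrocyte gene of the N-myc downstream family, was at 1303, 1269 and 1358 CPM in the 3 high animals and 797 to 1090 in controls, and Acsbg1, an acyl-CoA synthetase, at 465, 459 and 479 against 360.2 to 389.8. Gfap, in contrast, was highest in cKO-/- Sample_936, at 368 CPM, and Aqp4 was even over the cKO-/- animals, with a coefficient of variation of 5.27%. In the hippocampi of the same 3 animals the summed level, 11982 to 13165 CPM, fell within the control range of 11576 to 13940. The median coefficient of variation over the 34 genes was 9.78% in control, 11.2% in cKO+/- and 16.4% in cKO-/- cerebellum, and 12.1%, 8.52% and 9.54% in the hippocampus.

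Markers of other cells also changed in the cerebellum, where 13.7% of all genes were called. Of 8 meningeal fibroblast markers 6 rose with the alleles lost (Col1a2 by 0.45 and Igf2 by 0.58 on the log2 scale), their summed level being 213 to 290 CPM in controls, 290 to 567 in cKO-/- and 535 to 567 in Sample_1371, Sample_1379 and Sample_1385. Of 11 oligodendrocyte markers 5 rose, with sums of 4192 to 6177 CPM in controls, 4559 to 9964 in cKO-/- and 5857 to 8236 in the 3 animals, and of 10 microglia markers 3 rose, with 154 to 167, 150 to 282 and 202 to 282 CPM. The choroid plexus markers summed to 18.8 to 26.5 CPM in controls and 33.1 to 77.1 in the 3 animals, while other mutant libraries reached 3212 CPM in cKO+/- and 3085 in cKO-/-. The granule cell markers had lower sums in the 3 animals, at 3590 to 4760 CPM against 6116 to 6987 in controls and 3590 to 7465 in all 6 cKO-/- animals, and of the 8 genes, all with negative fold changes, Barhl1 passed (fell by 0.29 on the log2 scale, adjusted p = 0.00315). Purkinje cell markers summed to 8976 to 13130 CPM in controls and 13064 to 19671 in the 3 animals, and 0 of the 7 passed. With the term for the animal numbers, 3 meningeal markers, Col1a2 and Igf2 among them, and 0 oligodendrocyte, microglia or granule cell markers passed. The midbrain and brainstem markers Th (-0.89, adjusted p = 0.0087) and Tph2 (0.53, adjusted p = 0.0497) passed with it as well. Tph2 also passed without it. In the hippocampus, where 4.44% of all genes were called, 3 of 8 endothelial, 2 of 11 oligodendrocyte and 1 of 8 meningeal fibroblast markers rose. Of 9 hippocampal excitatory neuron markers 3 fell there, and 0 of 10 microglia markers passed. With the term for the animal numbers, 1 of these neuron markers passed in the hippocampus and 0 of the other markers named there. None of these markers was at 0 in all libraries, and their part in the values of the 34 genes was not tested.

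**Figure D4:**
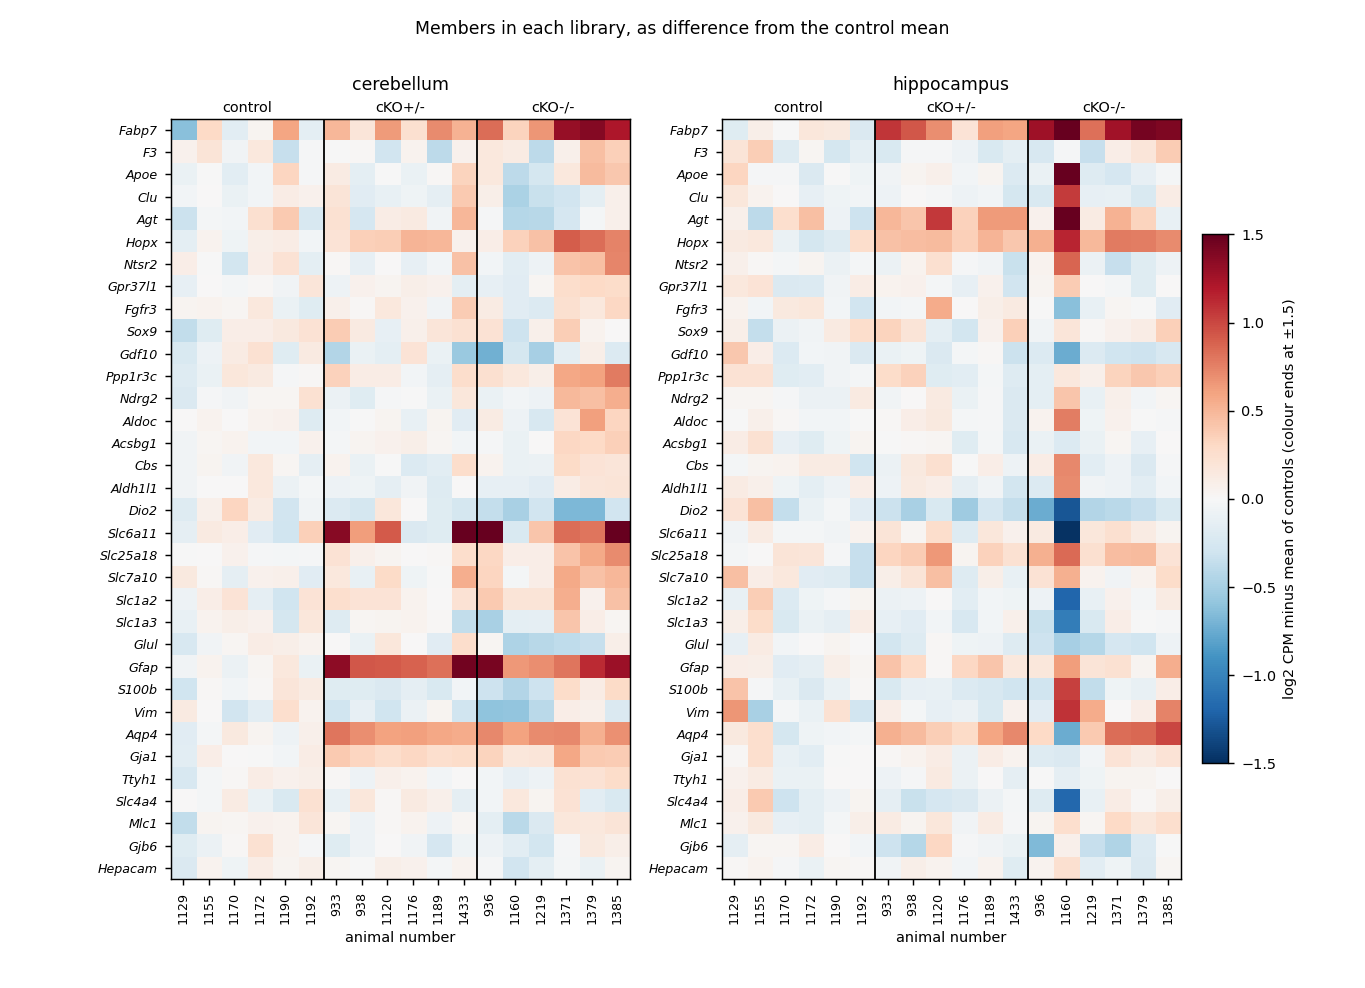
Log2 CPM of each of the 34 genes minus the control mean (colour, ending at ±1.5) in every library, by tissue and genotype, with animal numbers along the x axis. Gfap and Aqp4 are red in all mutant cerebella, most genes are red in cerebella of Sample_1371, Sample_1379 and Sample_1385, and the hippocampal library of Sample_1160 departs in both directions.

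The hippocampal library of Sample_1160 departed in both directions. It had 4672 CPM of Apoe, against 1262 to 1470 in the other cKO-/- animals, and 1997 of Clu against 824 to 1041, but 1296 of Slc1a2 against 2730 to 3227 and 57.6 of Slc6a11 against 166 to 191. Its cerebellar library had 790 CPM of Apoe, below the 932 to 1300 of controls, and 968 of Slc1a2, within the 686 to 977 of controls. With the hippocampal library of Sample_1160 included, 4 of the 34 genes passed in the hippocampus in place of 6 (Fabp7, Hopx, Slc25a18 and Glul).

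Between the tissues of the 6 controls, 30 of the 34 genes differed, 11 higher and 19 lower in the hippocampus, against 71.9% of all genes (35.2% higher and 36.7% lower). The values here were scaled jointly over the 12 control libraries, and levels between genes are given per length as RPKM (CPM divided by the gene's exon length in kilobases). The median log2 difference, hippocampus minus cerebellum, was -0.33 over the 34 genes and -0.02 over all genes. Differences beyond 2-fold passed for 16 genes, 4 higher and 12 lower in the hippocampus, against 24% of all genes, and the libraries of the tissues did not overlap for 25, against 52.2%.

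Genes lowest in the hippocampus relative to the cerebellum were led by Gdf10, at 209 ± 27.4 CPM in the cerebellum and 17.5 ± 3.04 in the hippocampus (SD, n = 6 each), 11.9-fold lower (adjusted p = 1.33e-11). S100b was at 582 ± 62.5 and 109 ± 18.3 CPM, 5.32-fold lower, and Vim at 239 ± 31.2 and 45.4 ± 13.6 CPM, 5.26-fold lower. Agt followed, at 68.5 ± 12.8 and 23.3 ± 5.34 CPM, 2.93-fold lower. The tissues did not overlap for any of these genes, and Hopx, 2.62-fold lower, did not overlap either.

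Genes highest in the hippocampus relative to the cerebellum were uptake genes and Gfap. Slc6a11 was at 37 ± 6.51 CPM in the cerebellum and 167 ± 8.9 in the hippocampus (SD, n = 6 each), 4.51-fold higher (adjusted p = 2.13e-10), and Slc1a2 at 828 ± 119 and 3083 ± 462 CPM, 3.73-fold higher. Gfap was at 133 ± 8.67 and 408 ± 34 CPM, 3.07-fold higher, and Clu at 431 ± 21.8 and 999.9 ± 70.8 CPM, 2.32-fold higher. Slc1a3, the other glutamate transporter, was 2.4-fold lower in the hippocampus.

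Per length, Aldoc (670 ± 40.6 RPKM, SD, n = 6) and Apoe (638 ± 76.5) were the most abundant of the 34 in control cerebellum and did not differ beyond their spread, followed by Ndrg2 (419 ± 43.1) and Slc1a3 (405 ± 44.4), which did not differ beyond it either. In control hippocampus Apoe (984 ± 122 RPKM) led, before Clu (553 ± 39.2) and Glul (519 ± 31.5), the latter pair within their spread. The transcription factor Sox9 had the lowest mean in both, at 8.67 ± 1.28 RPKM in the cerebellum and 6.72 ± 1.01 in the hippocampus, within the spread of cerebellar Slc6a11 (9.10 ± 1.6) and Dio2 (9.61 ± 1.53) and of hippocampal Gdf10 (6.99 ± 1.21). Gja1, Ttyh1, Slc7a10 and F3 did not differ between the tissues at the threshold, with log2 differences of -0.02, 0.03, -0.13 and -0.20. Part of Slc7a10 (12% of its length) and Ttyh1 (6.44%) lies opposite exons of another gene.

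**Figure D5:**
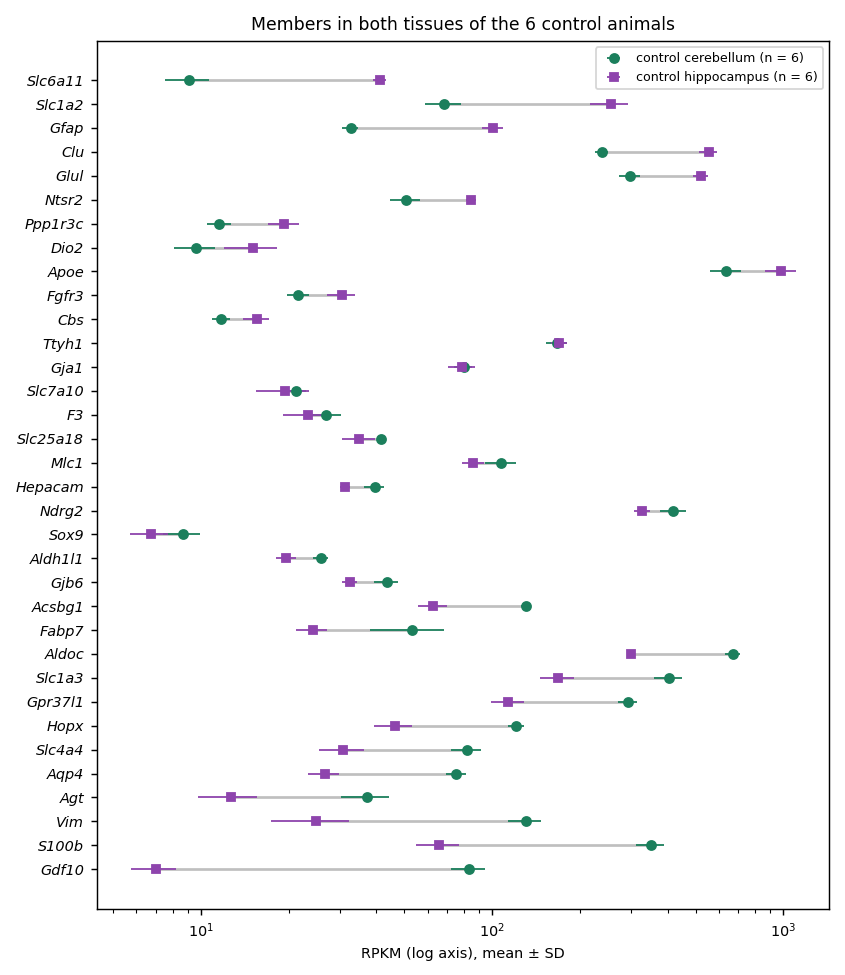
Mean RPKM (log axis) with SD of the 34 genes in the cerebellum (circles) and the hippocampus (squares) of the 6 control animals, ordered by their log2 difference. Gdf10, S100b and Vim lie farthest apart with the cerebellum higher, and Slc6a11, Slc1a2 and Gfap with the hippocampus higher.

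With the animal as a block, since each gave both tissues, 31 of the 34 genes differed, F3 being added (adjusted p = 0.0154). In the 5 cKO-/- animals with both libraries in use, 30 genes differed, 9 higher and 21 lower in the hippocampus, against 62.9% of all genes (30.5% higher and 32.4% lower). The log2 difference of Gfap was 0.74 there against 1.62 in controls, and that of Slc6a11 0.90 against 2.18.

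Whether the allele effect differed between the tissues was tested as an interaction. By edgeR it passed for 0 of the 34 genes, against 1.49% of 13587 genes, with 7 at an unadjusted p under 0.05. Gfap came nearest, its slope being 0.40 lower in the hippocampus than in the cerebellum on the log2 scale (SE 0.12, adjusted p = 0.106). With the animal as a block the difference was -0.44 and passed (adjusted p = 0.018), and no other of the 34 genes did. That fit also left out the cerebellar library of Sample_1160, so the change of call cannot be put down to the block alone. A call among the 34 genes also came without the block when Sample_1160 was left out. The slopes of Aqp4 differed by 0.02 ± 0.09 (SE).

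Tested between the sexes, a difference in the allele effect passed for 0 of the 34 genes by edgeR in either tissue, as for 0% of all genes, with 0 at an unadjusted p under 0.05 in the cerebellum and 4 in the hippocampus.

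Among 29 other astrocyte genes tested in the cerebellum, 4 rose and 4 fell with the alleles lost, against 13.7% of all genes called. Among 30 in the hippocampus 3 rose and 4 fell, against 4.44%. Kcnj10, the potassium channel Kir4.1 of astrocyte membranes, rose in both tissues, from 284 ± 38.5 CPM in control to 398 ± 53.3 in cKO+/- and 461 ± 94.1 in cKO-/- cerebellum (SD, n = 6 each), and from 180 ± 14 to 206 ± 13.7 and 249 ± 20 in the hippocampus. The log2 fold change per allele lost was 0.35 (adjusted p = 0.00249) and 0.23 (adjusted p = 0.000292). The metallothionein genes Mt1 and Mt2, which bind zinc and copper, fell in both tissues, Mt2 by 0.51 in the cerebellum (adjusted p = 0.00123) and by 0.29 in the hippocampus (adjusted p = 0.00102). Etnppl, an ethanolamine phosphate lyase, fell by 0.53 in the hippocampus (adjusted p = 0.00272). With the term for the animal numbers 1 of these genes passed in each tissue, Mt2 in the cerebellum (adjusted p = 0.0413) and Kcnj10 in the hippocampus (adjusted p = 0.0421), and cerebellar Kcnj10 (adjusted p = 0.076), hippocampal Mt2 (adjusted p = 0.178) and Etnppl (adjusted p = 0.275) did not.

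Of all genes, 13.7% were called in the cerebellum and 4.44% in the hippocampus, the shares against which the next 3 lists stand. Of 26 reactive astrocyte genes tested in the cerebellum, 3 rose (Steap4, Cd44 and Cp) and none fell, with a median of 0.12. Steap4, a metalloreductase, rose by 0.79 on the log2 scale (adjusted p = 0.00146) at a low level, with means of 0.511 CPM in control and 1.55 in cKO-/-. Its control mean lay below the 1 CPM of the low-count filter. Control libraries alone could therefore not have brought Steap4 into the test, and its call depends on that filter being passed in mutants. Of 25 tested in the hippocampus, Aspg fell and none rose. Of 11 Bergmann glia and Shh-responsive glia genes, Ednrb, an endothelin receptor, rose by 0.14 and Wif1, a Wnt inhibitor, fell by 0.94 in the cerebellum, and Timp4 fell by 0.10 in the hippocampus. Of 13 radial glia and neural stem cell genes Lpar1 rose by 0.32 in the cerebellum, and of 14 Thrsp fell by 0.16 in the hippocampus. With the term for the animal numbers 0 genes of these 3 lists passed in the cerebellum, Steap4 having an adjusted p of 0.051, and in the hippocampus Aspg alone did (adjusted p = 0.0416).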

How the data were processed

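Per the labels and the study's methods, poly(A) RNA was sequenced as paired-end reads and aligned with STAR 250a. The authors deposited raw counts per gene, 1 table per tissue, and every sample column was mapped (0 were not). The build named is mm9, while gene coordinates in the tables are GRCm38. Strand use and annotation release are not given in the sources used here.

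From these counts, genes above 1 CPM in at least 6 of 18 libraries were kept, scaled by TMM and fitted in edgeR 4.0.16 (R 4.3.3, quasi-likelihood, Benjamini-Hochberg adjustment over all tested genes, threshold 0.05) with sex and the number of alleles lost. Genotype as a factor gave the pairwise contrasts. The hippocampal fit used 17 libraries, without Sample_1160, and all 18 as an alternative. Tissues were compared in controls after joint scaling. DESeq2 1.42.0, other scaling, filters, depth thinned to 21421850 and 17609321 counts, and leaving out animals were alternatives. The depth of 17609321 to 45544188 counts per library sets the counting error, and fits were tested on simulated data. A simulated log2 change of 0.3 per allele was called for 73.5% of changed genes in the cerebellum and 80.6% in the hippocampus. For a change of 0.6 the shares were 96.1% and 97.1%, and smaller changes than 0.3 were not simulated.

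The same animal gave both tissues, so the animal number pairs the libraries. The libraries of an animal deviated from their group means with a median r of 0.217 over 17 animals (15 above 0.1).

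Values are given for each member that passed in either tissue, the 4 members with the largest tissue difference in each direction, Gfap, Gdf10 and Hopx, and up to 4 members of each other list by adjusted p. Other members named with values, among them Slc6a11, Agt, Ndrg2 and Acsbg1, were chosen after their values were seen, as were the last 2 promoter motifs. The members and lists were chosen with earlier results of these data known.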

Additional observations from a re-analysis of the deposited data

Results flagged for a closer look

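A single library lay far from the other 5 of its group, by Dixon's test at 95%, in 27 of 204 groups of 6 libraries, where chance gives about 1 in 20 groups, or 10.2. Of the 27, 16 were the hippocampal cKO-/- library of Sample_1160, which is not in the hippocampal fit. In CPM, with the range of the other 5 libraries, it was high for Aldh1l1 (95.9 against 50.5 to 56.7), S100b (213 against 81 to 112), Agt (66.1 against 20.4 to 32.1), Aldoc (1427 against 798 to 876), Ndrg2 (911 against 613 to 717), Apoe (4672 against 1262 to 1469.9), Clu (1997 against 824 to 1041), Ntsr2 (232 against 99.7 to 131), Cbs (62.2 against 32.1 to 40.6), Gpr37l1 (322 against 216 to 254), Fabp7 (81.6 against 31.7 to 48.7). It was low for Slc1a2 (1296 against 2729.7 to 3227), Gdf10 (9.85 against 13.4 to 14.5), Fgfr3 (83.1 against 114 to 132), Slc6a11 (57.6 against 166 to 191), Slc4a4 (97.4 against 193 to 238).

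The other groups were spread over animals. Slc6a11 in the cKO+/- cerebellum of Sample_1433 was 214 CPM, against 32.4 to 97.6. Aldoc in the control cerebellum of Sample_1192 was 1735 CPM, against 1988 to 2073. Apoe in the control cerebellum of Sample_1190 was 1299.7 CPM, against 932 to 1029. Mlc1 in the control cerebellum of Sample_1129 was 198 CPM, against 262 to 290.1. Ntsr2 in the cKO+/- cerebellum of Sample_1433 was 108 CPM, against 73.4 to 81.2. Slc25a18 in the control cerebellum of Sample_1170 was 61.1 CPM, against 57.5 to 58.5. S100b in the control hippocampus of Sample_1129 was 141 CPM, against 90.1 to 106. Fgfr3 in the cKO+/- hippocampus of Sample_1120 was 190.2 CPM, against 126 to 142. Agt in the cKO+/- hippocampus of Sample_1120 was 46.5 CPM, against 28.3 to 34.7. Apoe in the control hippocampus of Sample_1129 was 1872 CPM, against 1293 to 1494. Clu in the cKO+/- hippocampus of Sample_1433 was 807 CPM, against 913 to 974.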

How the results depend on the processing

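In the cerebellum 9 of the 34 genes passed in the allele trend, 2 with a term for animals numbered outside Sample_1120 to Sample_1219 (308 of all genes against 1916), 4 among Sample_1120 to Sample_1219 alone (277 of all genes) and 4 without Sample_1371, Sample_1379 and Sample_1385 (425). Of the 9, Aqp4, Gfap and Hopx kept their call among Sample_1120 to Sample_1219, where Clu was added, and Aqp4 and Gfap kept it without the 3 animals, where S100b and Vim were added, all 3 added genes being lower. In the hippocampus 6 passed, 2 with the term (68 of all genes against 636) and 2 without the 3 animals (89). The cKO-/- libraries within Sample_1120 to Sample_1219 were Sample_1160 and Sample_1219 in the cerebellum. In the hippocampal fit Sample_1219 was the only one, so no count is given for that setting. The fits on Sample_1120 to Sample_1219 alone and without the 3 animals were chosen after seeing the data, and the cause was not tested. With all 18 hippocampal libraries 246 of all genes and 4 of the 34 passed. DESeq2 called 11 and 6 of the 34 in the trend (1048 of all hippocampal genes), and between cKO+/- and control 3 in the cerebellum (158 of all genes against 48) and 4 in the hippocampus (100 against 5).

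Without 1 animal at a time, 7 to 11 genes passed in the cerebellar trend and 3 to 6 in the hippocampal trend (3 without Sample_1190 or Sample_1379). Likewise 7 to 11 and 3 to 6 passed between cKO-/- and control (3 in the hippocampus without Sample_1155, Sample_1190, Sample_1371 or Sample_1379), 2 to 3 and 0 to 5 between cKO+/- and control (5 without Sample_1176, 1 without Sample_1219), 29 to 31 between the tissues and 0 to 1 for the tissue difference of the allele effect (1 without Sample_1160). None of the 15 fold changes that passed in the allele trend reversed. Leaving out 1 animal ended the hippocampal call of Slc25a18 for 13 of 17 animals and of Dio2 for 10, the cerebellar call of Slc1a2 for 7 of 18 and of Ppp1r3c for Sample_1371 and Sample_1385, and the hippocampal call of Glul for Sample_1190 and Sample_1379.

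With the animal as a replicate block, 31 of the 34 genes differed between the tissues, 33 having the same call as without it. The allele effect differed for 1 gene (Gfap; 335 of all genes against 203), in a fit that also left out the cerebellar library of Sample_1160. Within a tissue each animal gave 1 library, so no block applies. CPM per library under other size factors was not run.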
